A study of Mus musculus with 6 samples.

Results

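The 9 genes described here encode receptors with which hematopoietic stem and progenitor cells find and hold on to the bone marrow niche. They were chosen by name as known genes of homing and adhesion, with earlier results of these data known, among 55487 genes in the deposited table, and comprise the chemokine receptor Cxcr4, the integrin subunits Itga4, Itga6, Itgb1, Itgal, Itgam and Itgb2, the hyaluronan receptor Cd44 and the selectin ligand Selplg. All 9 of 9 passed the filter on low counts. RNA was measured in LSKs, that is, lineage-negative bone marrow cells positive for Sca-1 and c-Kit, which hold the stem cells and multipotent progenitors. Libraries came from 3 Tespa1+/+ (wild-type) and 3 Tespa1-/- samples, the latter from the knockout line B6.129S-Tespa1tm1Smoc on a C57BL/6 background. All mice were young adult males, and all had received sublethal total body irradiation, with RNA taken on the thirteenth day. No unirradiated library was analysed here. The methods describe no restriction of the knockout to blood cells, and do not say whether the wild-type mice were littermates. The sources do not say whether mice were pooled for a replicate, and p-values therefore measure the spread between these samples, which may be technical in part.

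Homing is known to proceed in steps. A progenitor follows the chemokine CXCL12 through CXCR4, rolls on endothelial selectins through PSGL-1 (the product of Selplg) and CD44, and stops when integrins bind their ligands. An integrin is a pair of an alpha and a beta chain. The alpha4 and beta1 chains form VLA-4, which binds VCAM-1 and fibronectin. Alpha6 pairs with beta1 to bind laminins. The beta2 chain pairs with alphaL in LFA-1 and with alphaM in Mac-1, which bind ICAMs and other ligands. Since the lineage stain of the sort included an antibody against CD11b, the product of Itgam, cells with much of that protein on the surface were gated out.

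Promoter sequence is shown for 4 of the genes. With the main scaling used below, RNA of Itga4 and Cd44 was lower in Tespa1-/- LSKs by more than 1.5-fold. That of Itgb1 and Cxcr4 was not. After a correction for exon length, the differences of Cd44 and Cxcr4 were alike (-0.46 and -0.43 on the log2 scale) and both under 1.5-fold. Of the 9 genes, 5 matched an entry of the RefSeq table on build GRCm38.p6, with Itgam as the fifth. Each sequence holds the 250 bases before the RefSeq gene start, 5′ to 3′ on the strand of the gene. Capitals mark the GC box (GGGCGG, read CCGCCC on the other strand) and an ETS-type motif (GAGGAA, read TTCCTC on the other strand). The windows lie at chr2:79255176-79255425 on the plus strand (Itga4), chr2:102901666-102901915 on the minus strand (Cd44), chr8:128685404-128685653 on the plus strand (Itgb1) and chr1:128592300-128592549 on the minus strand (Cxcr4).
Itga4: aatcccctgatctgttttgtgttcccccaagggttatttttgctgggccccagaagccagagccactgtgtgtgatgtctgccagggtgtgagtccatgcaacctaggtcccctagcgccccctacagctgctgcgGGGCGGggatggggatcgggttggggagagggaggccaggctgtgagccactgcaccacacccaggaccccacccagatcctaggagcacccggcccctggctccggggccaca
Cd44: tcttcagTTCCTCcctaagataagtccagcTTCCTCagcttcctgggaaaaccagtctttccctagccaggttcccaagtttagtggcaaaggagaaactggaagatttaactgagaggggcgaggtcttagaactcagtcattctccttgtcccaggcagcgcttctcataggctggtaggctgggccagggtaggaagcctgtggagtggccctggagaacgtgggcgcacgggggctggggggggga
Itgb1: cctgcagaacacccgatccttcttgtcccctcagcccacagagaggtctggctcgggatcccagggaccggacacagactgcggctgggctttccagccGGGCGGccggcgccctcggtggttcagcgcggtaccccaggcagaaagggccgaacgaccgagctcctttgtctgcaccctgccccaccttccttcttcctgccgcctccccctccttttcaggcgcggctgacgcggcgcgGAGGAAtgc
Cxcr4: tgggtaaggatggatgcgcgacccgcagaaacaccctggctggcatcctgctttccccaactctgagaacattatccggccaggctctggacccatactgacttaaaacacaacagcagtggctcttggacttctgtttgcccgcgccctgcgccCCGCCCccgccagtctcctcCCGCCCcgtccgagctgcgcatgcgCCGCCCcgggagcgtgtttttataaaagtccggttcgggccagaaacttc

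The GC box occurred 3 times in the Cxcr4 window, 1 time each in the Itga4, Itgb1 and Itgam windows and 0 times in the Cd44 window. GAGGAA occurred 2 times in Cd44, 2 times in Itgam and 1 time in Itgb1, and was found in neither Itga4 nor Cxcr4. Among all 32851 windows of that length, 32.74% held a GC box and 23.25% held GAGGAA, so single matches were common. Further motifs searched on both strands were the GATA type AGATAA, with 1 match in Cd44 and a match in 9.99% of all windows, and the RUNX type TGTGGT, with 1 match in Itga4 and a match in 14.05% of all windows. The TATA box (TATAAA) had 2 overlapping matches in Cxcr4, 1 on each strand, and was present in 12.37% of all windows. The core of the cyclic AMP response element (TGACG) had 1 match in Itgb1 and was present in 17.77%. The CCAAT box (33.85% of all windows) and the E-box CACGTG (6.02%) had no match in the 5 windows. Base composition ran from 49.6% G and C in Itgam to 56.4% in Cd44, 61.2% in Cxcr4, 64.0% in Itga4 and 68.0% in Itgb1, beside a median of 52.4% over all windows. Itga4 and Cd44 shared no motif of this search, while Itga4 shared the GC box with Itgb1 and Cxcr4.

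Total counts of the libraries ran from 14344753 to 30576981 (Tespa1+/+) and from 12856630 to 17684702 (Tespa1-/-). Levels are given as CPM (reads of a gene relative to the TMM-scaled depth of its library). Differences are given as log2 fold changes of Tespa1-/- over Tespa1+/+ with a standard error (SE). The SE was derived from the edgeR test, as the absolute log2 fold change divided by the square root of its F statistic. A gene was called changed at an adjusted p under 0.05 (edgeR quasi-likelihood test, Benjamini-Hochberg over 15332 genes) with a fold over 1.5. Tespa1 itself read 34.5, 32.7 and 36.0 CPM in Tespa1+/+ and 15.3, 14.3 and 14.2 CPM in Tespa1-/- libraries (log2 fold change -1.23 ± 0.07 SE, adjusted p = 7e-06), lower in each library labelled Tespa1-/- but not absent. The sort markers Kit, Ly6a, Cd34 and Flt3 were present in both groups, with a summed level of 1106 to 1145 CPM in Tespa1+/+ and 615 to 634 CPM in Tespa1-/- libraries, and 3 of 4 were called lower. Stem cell markers summed to 87.5 to 100.4 CPM against 36.2 to 37.3 CPM, with 7 of 8 called lower. Neutrophil markers summed to 21.98 to 24.1 CPM against 490 to 519 CPM, with 11 of 11 tested called higher and Ly6g at 0 in Tespa1+/+ libraries. Beside these counts, 19.2% of all genes tested were called lower and 14.0% higher. In such bulk samples, fewer cells of a type and less RNA per cell cannot be told apart. Fold change also fell with the length of a gene's exons, which touches the genes below. Spearman's rho was -0.614 over 10135 genes with a log2 CPM over 3. Each receptor gene is therefore also given after a correction for length, and other genes only in part. With that correction, 2 of 4 sort markers and 6 of 8 stem cell markers were called lower. The neutrophil markers called higher were again 11 of 11. Over all genes, 17.3% were then called lower and 6.47% higher.

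Of the 9 receptor genes, 4 were called lower in Tespa1-/- LSKs, namely Itga4, Itgal, Itga6 and Cd44, and 0 were called higher. Over all genes tested, 19.2% were called lower and 14.0% higher. By the adjusted p alone, 6 of 9 were lower (31.8% of all genes), 1 was higher (31.5% of all genes) and 2 did not pass. The libraries of the groups did not overlap for 9 of 9, which held for 69.1% of all genes. The median log2 fold change of the 9 was -0.57, beside -0.0004 over all genes. With the length correction, 2 of 9 (Itga4 and Itgal) were called lower (17.3% of all genes) and 0 higher (6.47% of all genes), while 7 of 9 were lower (30.1% of all genes) and 0 higher (24.9% of all genes) by the adjusted p alone.

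**Figure D1:**
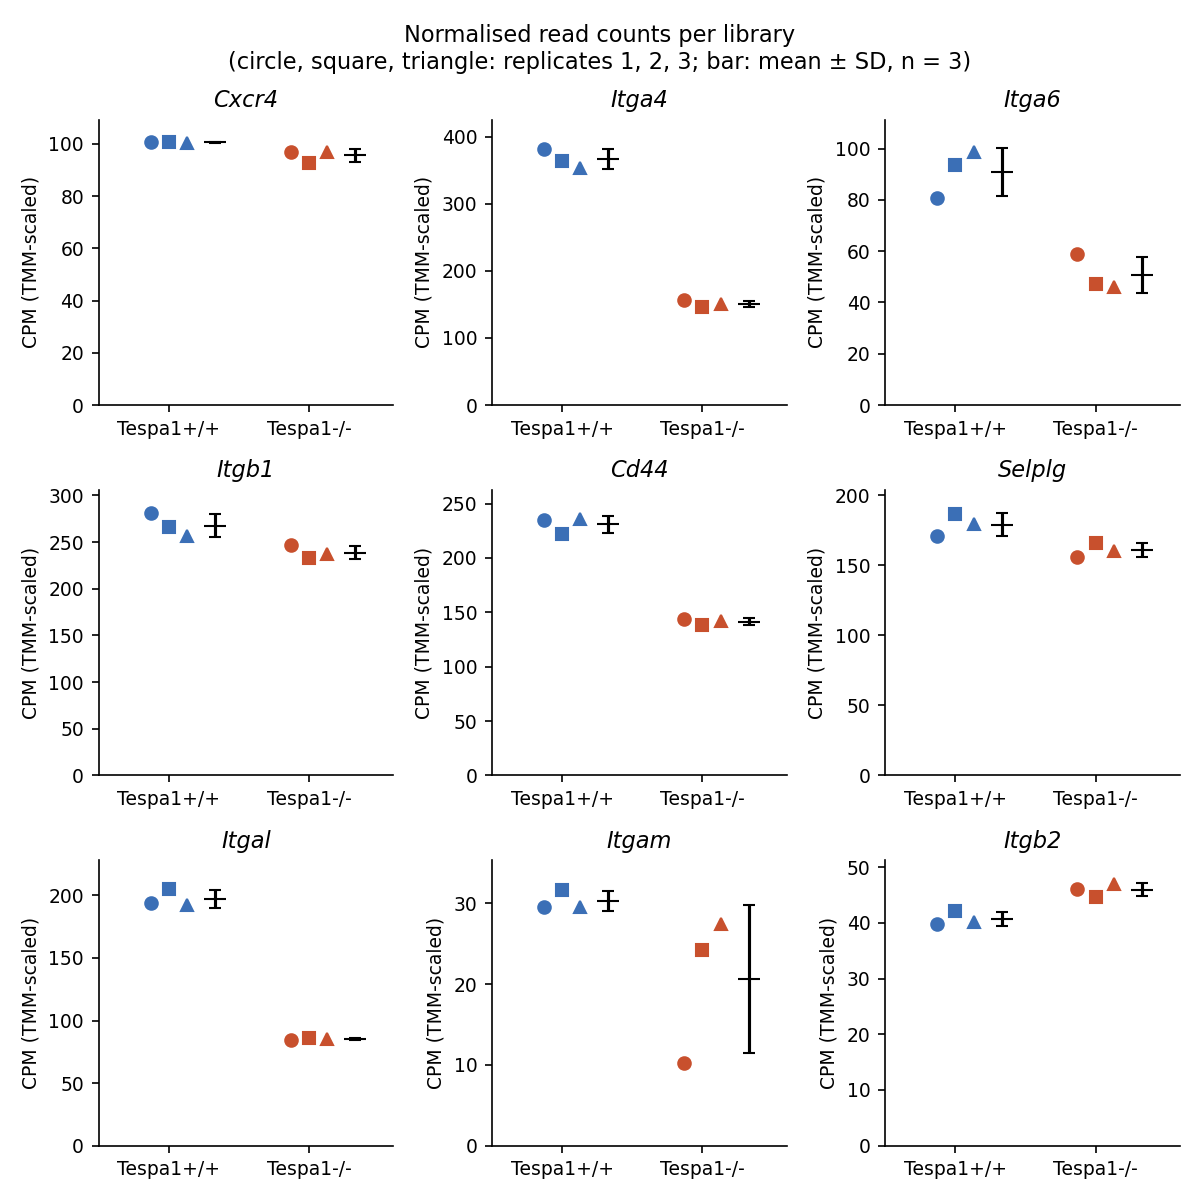
Normalised read counts (CPM with TMM factors, linear axis from 0) of the 9 genes in each of the 6 libraries, with the mean ± SD of the 3 libraries per genotype. Itga4, Itgal, Itga6 and Cd44 sat clearly lower in Tespa1-/- libraries, Itgb2 slightly higher, and Itgam varied most among the Tespa1-/- libraries.

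Cxcr4 (ENSMUSG00000045382, GRCm38 chromosome 1, 128588199 to 128592293, minus strand), the receptor for CXCL12, read 100.8, 100.6 and 100.4 CPM in Tespa1+/+ libraries and 97.0, 92.8 and 96.9 CPM in Tespa1-/- libraries. The Tespa1-/- values lay below the others by a few percent. The means were 101 ± 0.218 and 95.6 ± 2.43 CPM (SD, n = 3 each), and the difference did not pass the test (log2 fold change -0.07 ± 0.04 SE, adjusted p = 0.107 by edgeR). With the length correction it was -0.43 ± 0.04 (adjusted p = 9.43e-05), and with total counts in place of TMM factors -0.17 (adjusted p = 0.00376). Its annotated exons cover 1808 bases, the fewest of the 9 genes.

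Itga4 (ENSMUSG00000027009, chromosome 2, 79255426 to 79333123, plus strand), the alpha4 chain of VLA-4, had the largest difference of the 9 genes with TMM scaling, although not with the length correction. It read 382, 363 and 353 CPM in the Tespa1+/+ libraries and 156, 146 and 150.3 CPM in the Tespa1-/- libraries, and every Tespa1-/- value was far below every Tespa1+/+ value. The mean fell from 366 ± 14.9 to 151 ± 5.13 CPM (SD, n = 3), to 41.2% of the Tespa1+/+ level (log2 fold change -1.28 ± 0.04 SE, adjusted p = 1.29e-06). Itga4 also has the longest exons of the 9 genes (13978 bases), and the length correction left a log2 fold change of -0.67 ± 0.04 (adjusted p = 1.76e-05). Its exons overlap those of Cerkl on the opposite strand by 1124 bases, and whether counting used the strand is not given in the sources used here.

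Itga6 (ENSMUSG00000027111, chromosome 2, 71745616 to 71858416, plus strand), the alpha6 chain of laminin receptors, read 80.7, 93.6 and 98.6 CPM in Tespa1+/+ libraries and 58.9, 47.2 and 46.0 CPM in Tespa1-/- libraries. The groups did not overlap, although the libraries within each spread more than for Itga4. The mean fell from 91.0 ± 9.27 to 50.7 ± 7.14 CPM (SD, n = 3; log2 fold change -0.84 ± 0.11 SE, adjusted p = 0.000511). With the length correction it remained lower by the adjusted p, but by less than 1.5-fold (-0.45 ± 0.11, adjusted p = 0.0122).

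Itgb1 (ENSMUSG00000025809, chromosome 8, 128685654 to 128733200, plus strand), the beta chain shared by both, read 281, 266 and 256 CPM in Tespa1+/+ libraries against 246, 233 and 237 CPM in Tespa1-/- libraries. The lowest Tespa1+/+ library was close to the highest Tespa1-/- library. The difference passed the test with a small size (log2 fold change -0.16 ± 0.04 SE, adjusted p = 0.0112) and was -0.19 ± 0.04 with the length correction (adjusted p = 0.00871).

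Itgal (ENSMUSG00000030830, chromosome 7, 127296260 to 127335138, plus strand), the alpha chain of LFA-1, read 194, 205 and 192 CPM in the Tespa1+/+ libraries and 84.5, 85.8 and 85.2 CPM in the Tespa1-/- libraries. The Tespa1-/- libraries were nearly alike and all far below the others. The mean went from 197 ± 7.14 to 85.2 ± 0.640 CPM (SD, n = 3), or 43.2% of the Tespa1+/+ level (log2 fold change -1.21 ± 0.04 SE, adjusted p = 1.16e-06). Of the 9 genes it kept the largest difference after the length correction (-0.98 ± 0.04, adjusted p = 4.61e-06).

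Itgb2 (ENSMUSG00000000290, chromosome 10, 77530252 to 77565708, plus strand), the beta chain of LFA-1 and Mac-1, went the other way. It read 39.8, 42.2 and 40.2 CPM in Tespa1+/+ libraries and 46.1, 44.6 and 46.9 CPM in Tespa1-/- libraries, a narrow gap without overlap (log2 fold change 0.17 ± 0.05 SE, adjusted p = 0.019). The rise was smaller with total counts (0.07, adjusted p = 0.244) and absent with the length correction (0.00, adjusted p = 0.971). With DESeq2 (0.17, adjusted p = 0.103) and without Tespa1+/+ replicate 1 (0.16, adjusted p = 0.0595) its size was similar, but it did not pass. Neutrophils are known to carry much beta2 integrin, and the part of the neutrophil markers given above in this difference was not tested.

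Itgam (ENSMUSG00000030786, chromosome 7, 128062640 to 128118491, plus strand), the alpha chain of Mac-1 and a marker of myeloid cells, read 29.6, 31.7 and 29.6 CPM in Tespa1+/+ libraries and 10.3, 24.2 and 27.5 CPM in Tespa1-/- libraries. A single library, Tespa1-/- replicate 1, was far below the rest. The difference did not pass the test (log2 fold change -0.57 ± 0.31 SE, adjusted p = 0.152), and without that library it was -0.23 (adjusted p = 0.0551). Itgam shares 3450 exonic bases with Gm49368, an annotated gene on the same strand, which held 90 counts in Tespa1-/- replicate 1 and 0 counts in the other 5 libraries. With both genes summed, that library read 15.6 CPM and the log2 fold change was -0.44 (adjusted p = 0.0741), so the level of Itgam is uncertain there. Neutrophil markers were thus higher in Tespa1-/- libraries while Itgam was not.

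Cd44 (ENSMUSG00000005087, chromosome 2, 102811141 to 102901665, minus strand), the hyaluronan receptor that also serves as a ligand of E-selectin, read 235, 222 and 235 CPM in Tespa1+/+ libraries and 144, 139 and 142 CPM in Tespa1-/- libraries. The groups were widely apart beside the spread of each. Its mean fell from 231 ± 7.39 to 142 ± 2.87 CPM (SD, n = 3; log2 fold change -0.71 ± 0.04 SE, adjusted p = 5.15e-06), and the length correction left -0.46 ± 0.03 (adjusted p = 5.4e-05), which is under 1.5-fold.

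Selplg (ENSMUSG00000048163, chromosome 5, 113818536 to 113832644, minus strand), which encodes the selectin ligand PSGL-1, read 171, 187 and 179.6 CPM in Tespa1+/+ libraries and 156, 166 and 159.9 CPM in Tespa1-/- libraries. The gap between the groups was smaller than the spread within either. The log2 fold change was -0.16 ± 0.04 SE (adjusted p = 0.0171) and the same size with the length correction (-0.16, adjusted p = 0.0153). The adjusted p rose above 0.05 when 1 library was left out, for Tespa1+/+ replicate 2 (-0.12, adjusted p = 0.0728), Tespa1+/+ replicate 3 (-0.14, adjusted p = 0.0643), Tespa1-/- replicate 1 (-0.13, adjusted p = 0.0658) and Tespa1-/- replicate 3 (-0.15, adjusted p = 0.0581).

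**Figure D2:**
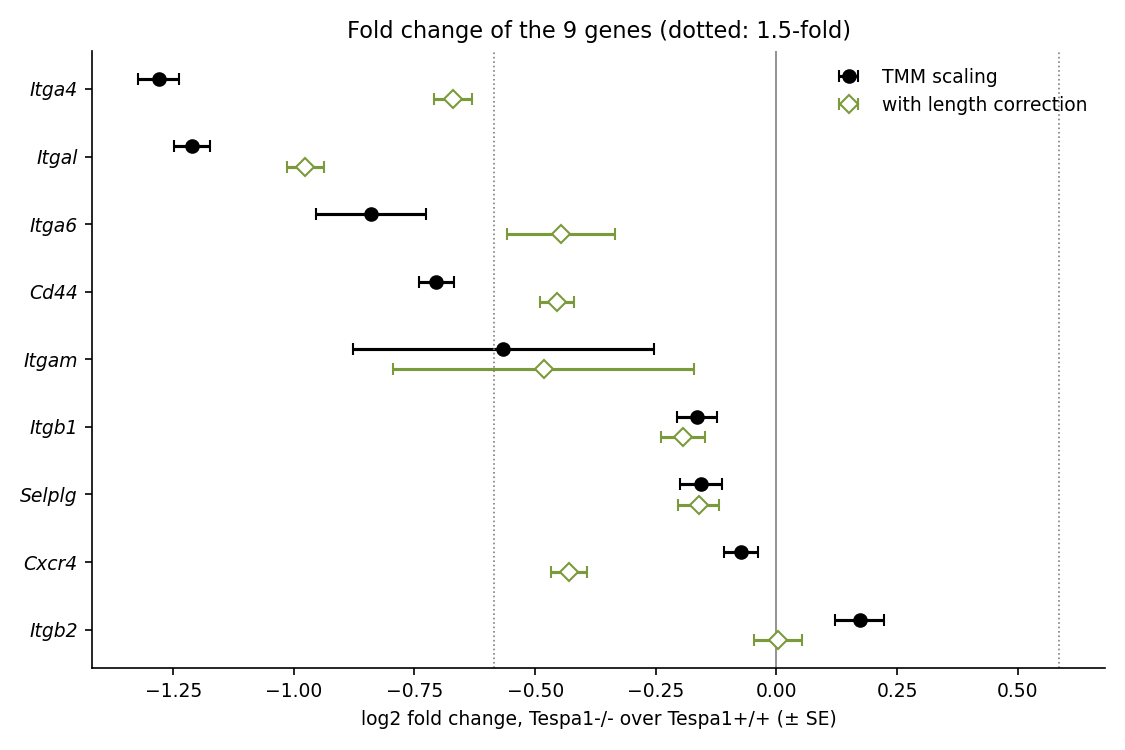
Log2 fold change of Tespa1-/- over Tespa1+/+ (± SE, linear axis) for the 9 genes, with TMM scaling (filled circles) and with the correction for exon length (open diamonds), and 1.5-fold marked by dotted lines. Itga4 and Itgal lay beyond 1.5-fold in both fits, Itga6 and Cd44 with TMM scaling alone, and Cxcr4 moved from -0.07 to -0.43.

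The order of the 9 fold changes followed exon length closely. Spearman's rho was -0.917 over the 9 genes, from Cxcr4 and Itgb2 (3052 bases) at the short end to Itga6 (9025 bases) and Itga4 at the long end, and -0.683 after the correction. These 9 points share the same 6 libraries, and the correlation is a description. Deposited FPKM values summed to 350333 to 351987 per Tespa1+/+ library and to 432222 to 433536 per Tespa1-/- library, so reads in the latter came from shorter genes on average. How much of the difference of a long gene such as Itga4 goes with length and how much with genotype cannot be told apart in these libraries.

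**Figure D3:**
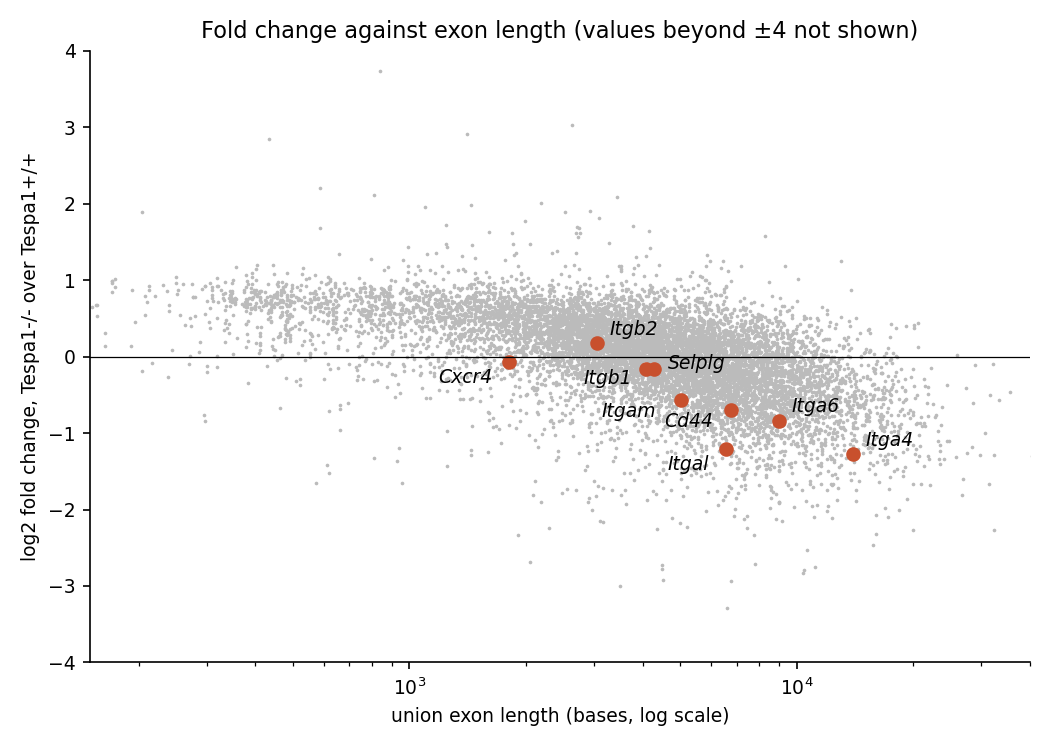
Log2 fold change of Tespa1-/- over Tespa1+/+ (linear axis) against union exon length in bases (log axis) for genes with a log2 CPM over 3 (grey) and for the 9 receptor genes (orange). The grey cloud falls with length (Spearman rho -0.614), and Itga4, with 13978 bases, is the longest of the 9, while Itgal lies near the lower edge of the cloud at its length.

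Levels of different genes were compared per length, as FPKM. In Tespa1+/+ LSKs the order was Itgb1 (48.9 ± 2.33 FPKM; SD, n = 3), Cxcr4 (38.4 ± 0.122), Selplg (32.3 ± 1.42), Itga4 (24.3 ± 1.01), Itgal (21.6 ± 0.765), Cd44 (19.1 ± 0.628), Itgb2 (9.03 ± 0.277), Itga6 (7.37 ± 0.743) and Itgam (4.35 ± 0.166). No neighbours in this order overlapped in range. Among Tespa1-/- LSKs the top 3 were the same, with Itgb1 at 40.7 ± 1.11, Cxcr4 at 34.1 ± 0.826 and Selplg at 27.0 ± 0.885 FPKM. Cd44 (10.9 ± 0.206) and Itgb2 (9.50 ± 0.234) then stood ahead of Itga4 (9.32 ± 0.304) and Itgal (8.71 ± 0.0775), and Itga6 (3.83 ± 0.535) and Itgam (2.76 ± 1.22) came last. Here Itgb2 and Itga4 overlapped in range, as did Itga6 and Itgam. The length that the authors' FPKM implies exceeded the annotated exon length for each of the 9 genes, for example 12512 against 6776 bases for Cd44. With annotated lengths, Cd44 moved ahead of Itgal and Itga4 in Tespa1+/+ LSKs, and Itgal ahead of Itga4 in both groups.

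Since an integrin needs both of its chains, each alpha chain was set against the beta chain given for it above. The ratio was taken within a library, which removes the scaling between libraries. Ratios to other beta chains, such as Itgb7, were not computed. Itga4 to Itgb1 gave FPKM ratios of 0.493, 0.496 and 0.499 for the Tespa1+/+ libraries against 0.230, 0.227 and 0.230 for the Tespa1-/- libraries, a log2 difference of -1.12. For Itga6 to Itgb1 it was 0.127, 0.156 and 0.171 against 0.106, 0.0896 and 0.0862 (log2 difference -0.68). Both ratios to the shared chain were lower in every Tespa1-/- library. Itgal to Itgb2 went from 2.41, 2.41 and 2.36 to 0.905, 0.950 and 0.898 (log2 difference -1.38), so that the alphaL transcript exceeded the beta2 transcript in Tespa1+/+ libraries and fell short of it in Tespa1-/- libraries. Itgam to Itgb2 went from 0.482, 0.486 and 0.476 to 0.144, 0.350 and 0.379 (log2 difference -0.85). Without Tespa1-/- replicate 1 that last difference was -0.40. In each of the 4 pairs the groups did not overlap, and the exact two-sided permutation test gave p = 0.1 (adjusted over the 4 pairs, 0.1), which is the smallest p that 3 against 3 samples allow. The ratios do not remove the relation with exon length, since the alpha genes are longer than their beta genes.

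**Figure D4:**
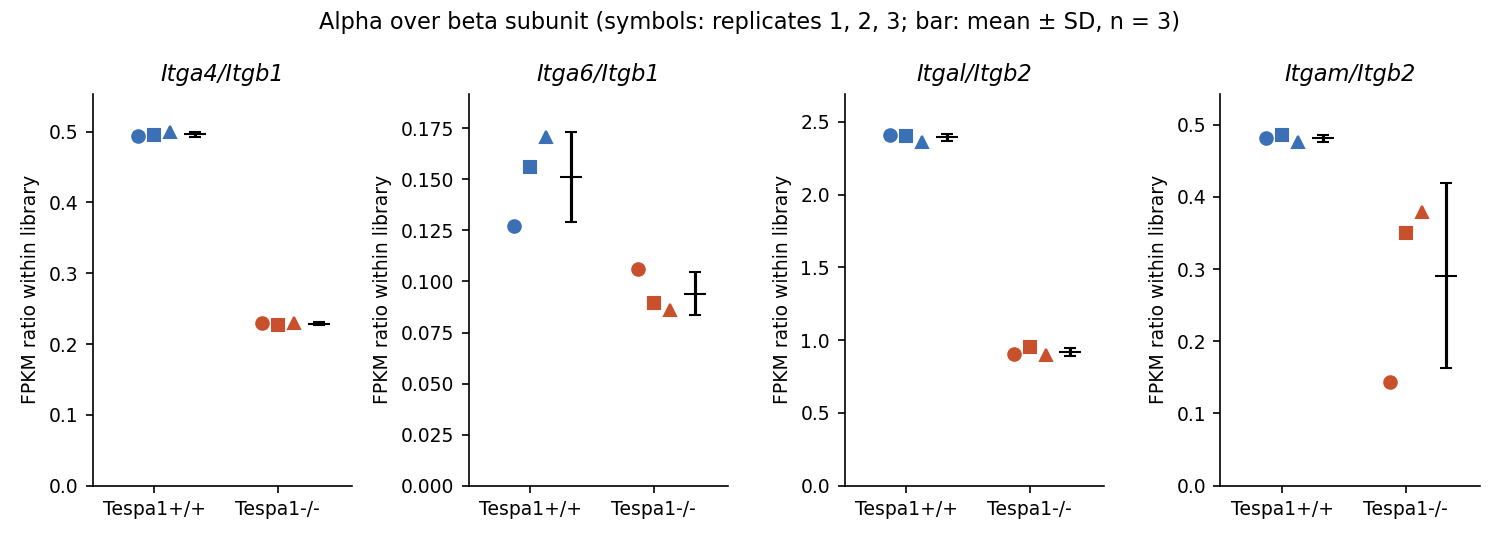
Ratio of the FPKM of an alpha chain to that of the beta chain set against it within each library (linear axes from 0), with mean ± SD of 3 libraries per genotype. The ratio was lower in each Tespa1-/- library for Itga4/Itgb1, Itga6/Itgb1, Itgal/Itgb2 and Itgam/Itgb2.

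The other genes of the machinery were read from 7 lists, which share some genes. Selp and Sele (also selectins) and Vcam1 and Icam1 (also adhesion molecules) are counted again among the niche ligands. For each list the counts stand beside the shares over all genes, 19.2% called lower and 14.0% higher with TMM scaling, and 17.3% and 6.47% with the length correction. Among the other integrin subunits, 15 of 20 were tested, 7 were called lower and 0 higher, and their median was -0.62 on the log2 scale (-0.42 after correcting for length, which left 4 called lower). Those with the largest falls were low in these cells. Itga9, an alpha chain of beta1, had 39, 41 and 15 counts in Tespa1+/+ libraries against 4, 1 and 0 counts in Tespa1-/- libraries. Itga3, a laminin receptor chain, fell from 1.04 ± 0.282 to 0.252 ± 0.220 CPM (SD, n = 3; adjusted p = 0.0271), and its call was lost without Tespa1+/+ replicate 1 (adjusted p = 0.0644) or Tespa1+/+ replicate 3 (adjusted p = 0.0684). Itgad, an alpha chain of beta2 that overlaps other annotated genes, went from 0.971 ± 0.102 to 0.360 ± 0.137 CPM (adjusted p = 0.0074), and its call was lost with DESeq2 (adjusted p = 0.0695). When alpha genes were grouped by their beta chain, a grouping made after the values were seen, 6 of 9 tested partners of beta1 (Itga1, Itga2, Itga3, Itga4, Itga6 and Itga9) and 3 of 4 partners of beta2 (Itgal, Itgax and Itgad) were called lower, and 0 of either were called higher, beside 19.2% called lower over all genes. After the length correction these counts were 3 and 3, beside 17.3% over all genes.

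Integrins are switched on from inside the cell by talin, kindlin and the proteins that link them to actin. In the list of integrin activation and linkage, 18 of 20 were tested, 6 were called lower and 0 higher, and the median log2 fold change was -0.04. Tln1 (talin) was among those called lower, from 1299 ± 26.4 to 714 ± 21.5 CPM (SD, n = 3). Its log2 fold change was -0.86 (adjusted p = 1.38e-06), and -0.43 with the length correction, under 1.5-fold. Fermt3 (a kindlin) did not pass with TMM scaling (0.04, adjusted p = 0.681). With the length correction it was higher by less than 1.5-fold (0.20, adjusted p = 0.0448). Tln1 and Fermt3 were named after their values were seen. The adaptor Pxn (paxillin) fell from 182 ± 5.39 to 92.5 ± 3.15 CPM (SD, n = 3; log2 fold change -0.98, adjusted p = 2.45e-06; -0.63 with the length correction). Parvb (beta-parvin) fell from 6.52 ± 1.36 to 2.38 ± 0.184 CPM (log2 fold change -1.43, adjusted p = 0.000567). Ptk2, which encodes focal adhesion kinase, was called lower (3.29 ± 0.553 against 1.77 ± 0.632 CPM, adjusted p = 0.0255), but not with the length correction (adjusted p = 0.297) nor without Tespa1+/+ replicate 1 (0.0633), Tespa1+/+ replicate 3 (0.0757) or Tespa1-/- replicate 1 (0.0533). The length correction left 2 called lower and 1 higher in this list.

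Of the genes for CXCR4 signalling and desensitisation, 24 of 25 were tested, 7 were called lower and 0 higher, with a median of -0.28. With the length correction 6 were called lower. The receptor kinase Grk3, which helps switch off chemokine receptors, fell from 126 ± 1.43 to 56.7 ± 0.738 CPM (log2 fold change -1.16, adjusted p = 1.06e-06; -0.78 with the length correction). Rgs1, an inhibitor of G protein signalling downstream of such receptors, fell from 85.0 ± 4.58 to 39.8 ± 4.25 CPM (-1.09, adjusted p = 2.77e-05; -0.83 with the length correction). Arrb1, which encodes beta-arrestin 1, was called lower (-2.76, adjusted p = 0.00722, and -2.26 with the length correction). Tespa1+/+ replicate 2 stood apart, however, at 104 CPM beside 24.0 and 26.8 CPM in the other Tespa1+/+ libraries. Without that library its log2 fold change was -1.70 (adjusted p = 0.00168). Signal transmitters moved both ways. The kinase subunit Pik3cg was called lower (-1.04, adjusted p = 4.44e-06 by edgeR). The G protein subunits Gnai2 (0.23, adjusted p = 0.000233) and Gnai3 (0.24, adjusted p = 0.00277) were higher by less than 1.5-fold. So was Arrb2, the other beta-arrestin (0.40, adjusted p = 0.000129). With the length correction Gnai3 did not pass (adjusted p = 0.128). By the adjusted p alone, 13 of 24 tested were lower and 9 higher, beside 31.8% and 31.5% of all genes. Pik3cg, Arrb2, Gnai2 and Gnai3 were named after their values were seen.

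Among the chemokine and lipid trafficking receptors, 13 of 16 were tested, 4 were called lower and 1 higher (median -0.18; 4 and 2 with the length correction). S1pr1, the receptor for sphingosine 1-phosphate in the blood, fell from 8.97 ± 0.426 to 3.63 ± 0.799 CPM (log2 fold change -1.30, adjusted p = 0.000272). Ptger2, a prostaglandin E2 receptor that overlaps genes on the opposite strand, fell from 5.31 ± 0.788 to 2.27 ± 0.242 CPM (-1.23, adjusted p = 0.000425). C5ar1, the complement C5a receptor of myeloid cells, rose from 0.236 ± 0.204 to 1.10 ± 0.0958 CPM (2.37, adjusted p = 0.00337), beside the neutrophil markers whose part in it was not tested. Its Tespa1+/+ counts were only 2, 4 and 7, and without Tespa1+/+ replicate 3 the log2 fold change was 3.13. Ccr9, a chemokine receptor that overlaps other annotated genes, was called lower at 1.25 ± 0.354 against 0.474 ± 0.218 CPM (adjusted p = 0.0181), a call lost with the length correction (adjusted p = 0.0869) and without Tespa1+/+ replicate 1 (0.0529), Tespa1-/- replicate 1 (0.0685) or Tespa1-/- replicate 2 (0.0637). Ackr3, the other receptor for CXCL12, was too low to test, with 0 counts in each Tespa1+/+ library and 3, 0 and 1 counts in the Tespa1-/- libraries.

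Selectins and the enzymes that build selectin ligands on proteins such as PSGL-1 formed a further list. Of its 16 genes 15 were tested, 2 were called lower and 1 higher, with a median of -0.10. St3gal6, a sialyltransferase of selectin ligand synthesis, fell from 2.59 ± 0.330 to 0.523 ± 0.217 CPM (log2 fold change -2.36, adjusted p = 0.000301), and Selp (P-selectin) from 53.1 ± 3.53 to 33.5 ± 1.28 CPM (-0.66, adjusted p = 0.000104). Both overlap genes on the opposite strand. C1galt1c1, the chaperone of an O-glycan enzyme, rose from 14.1 ± 1.54 to 21.7 ± 0.869 CPM (0.63, adjusted p = 0.000864), but not with the length correction (0.21, adjusted p = 0.0967).

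Among other adhesion molecules of progenitors, 19 of 22 were tested, 5 were called lower and 1 higher (median -0.20; 4 and 1 with the length correction). Robo4, a guidance receptor of stem cells and endothelium, fell from 7.12 ± 0.498 to 0.581 ± 0.279 CPM (log2 fold change -3.58, adjusted p = 2.32e-05). The ephrin receptor Epha2 fell from 8.28 ± 0.436 to 1.55 ± 0.532 CPM (-2.45, adjusted p = 6.78e-05) and Esam, an adhesion molecule of stem cells and endothelium, from 7.24 ± 0.675 to 3.34 ± 0.182 CPM (-1.12, adjusted p = 0.000149). Stem cell markers moved the same way, as given above, as did endothelial and stromal markers, which summed to 45.0 to 46.4 CPM against 19.9 to 20.4 CPM with 6 of 6 tested called lower. Their part in these falls was not tested. The tetraspanin Cd63 rose from 73.4 ± 2.48 to 126 ± 5.74 CPM (0.78, adjusted p = 1.09e-05).

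For the niche ligands, which the receptors bind on other cells or in the matrix, 7 of 15 were tested, 4 were called lower and 1 higher (median -0.66; 4 and 0 with the length correction). Fn1 (fibronectin, a ligand of VLA-4) fell from 6.79 ± 0.504 to 1.66 ± 0.538 CPM (log2 fold change -2.02, adjusted p = 0.000117, and -1.50 with the length correction). The laminin chains Lama5 (-1.87, adjusted p = 0.000616) and Lamc1 (-1.15, adjusted p = 0.000326), parts of ligands of alpha6 integrins, were lower as well. With the length correction their log2 fold changes were -1.37 and -0.80. Selp, given above with the selectins, was also among the ligands called lower. Spp1 (osteopontin, also bound by integrins) rose from 19.3 ± 2.24 to 36.3 ± 2.99 CPM (0.91, adjusted p = 0.000196), by less than 1.5-fold after the length correction (0.53, adjusted p = 0.00381). Fn1 overlaps a gene on the opposite strand and Spp1 a gene on the same strand. Of these ligands, Madcam1, Has2, Fga and Fgb were at 0 in every library.

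**Figure D5:**
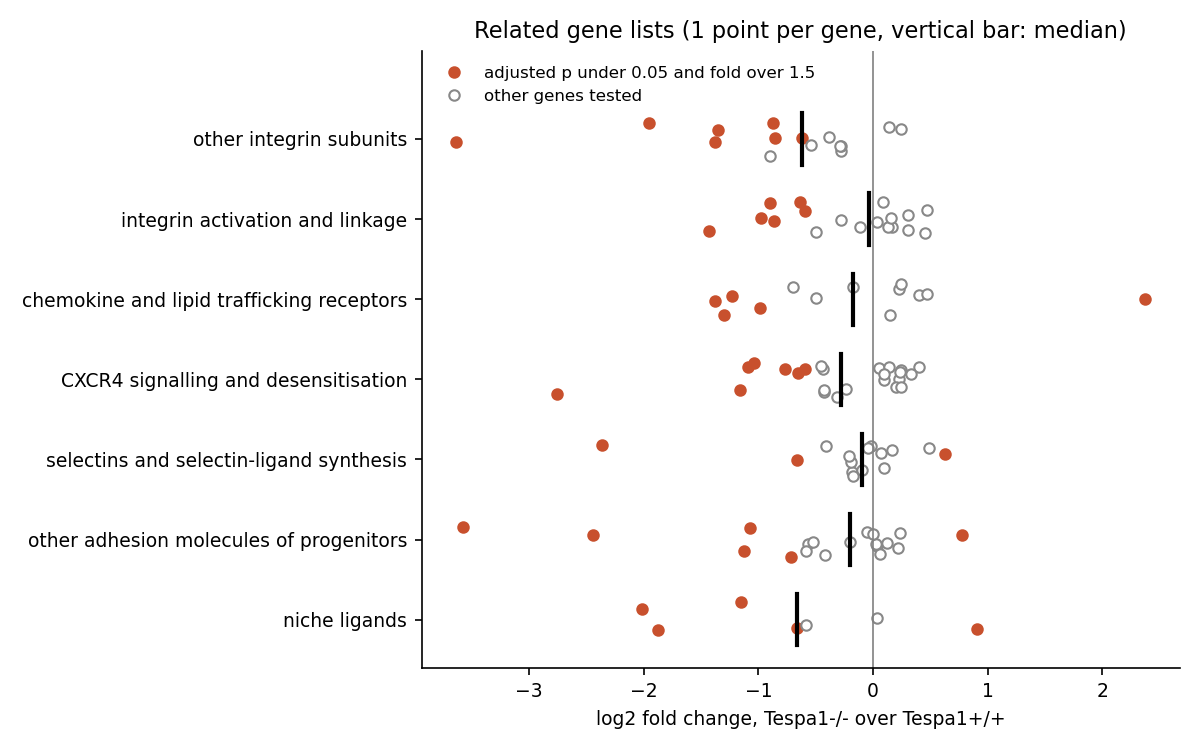
Log2 fold change of Tespa1-/- over Tespa1+/+ (linear axis) for the tested genes of 7 related lists, 1 point per gene, filled where the adjusted p was under 0.05 and the fold over 1.5, with the median of each list as a vertical bar. In each list more genes were called lower than higher, as over all genes (19.2% against 14.0%), and the medians ran from -0.66 (niche ligands) to -0.04 (integrin activation and linkage) with TMM scaling.

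Itga4, as the receptor with the largest difference under TMM scaling, was also compared with all other genes of a mean count of at least 100 over the 6 libraries. Among 10820 genes compared, the smallest root mean square differences of centred log2 CPM were those of Parp14 (0.024), Mdn1 (0.0256) and Myo5a (0.0329), whose log2 fold changes were -1.24, -1.30 and -1.27. Of the 10820 genes compared, 121 lay within 0.1 of Itga4. The comparison used TMM-scaled CPM without the length correction.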

How the data were processed

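Poly-A RNA of sorted LSKs was sequenced from stranded paired-end libraries. The authors deposited a raw count and an FPKM value (count per exon length and library total) per gene and sample, without pooling. The processing notes name CASAVA 1.8, HISAT2, StringTie, edgeR and build GRCm38, without their roles. Of the 55487 genes, 55227 were found in GENCODE M21 and 54907 had identical coordinates.

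Counts were filtered (filterByExpr), TMM-scaled and tested with edgeR 4.0.16 in R 4.3.3 over all 6 samples, without covariates, and adjusted over 15332 genes. FPKM was used for levels between genes and for alpha to beta ratios. Depth was 12856630 to 30576981 counts per library. Counts of the 9 genes ran from 175 (Itgam, Tespa1-/- replicate 1) to 11476 (Itga4, Tespa1+/+ replicate 2). Counting error was not measured on its own. Alternatives were RLE, total counts, no filter, a minimum of 10 counts per sample, DESeq2 1.42.0, a block for the replicate number, omission of each replicate and a length correction (loess, span 0.5, on union exon length, used as an offset). The sum of Itgam and Gm49368 was added after seeing the data. Named genes were the 9 receptors, Tespa1, up to 3 called genes with the largest rise and fall per list, and the 3 genes most like Itga4. The receptors, lists and markers were chosen with earlier results of these data known. The monocyte and macrophage markers are not reported here. On simulated counts of 15069 genes, edgeR recovered 100% of 200 genes changed 2-fold and made 5 false calls. Where a length trend was simulated (15046 genes) it made 1787 false calls, and 5 with the length correction. That trend was the same in all simulated Tespa1-/- libraries, and the 200 changed genes were drawn at random. The simulation therefore cannot show how well the correction separates length from genotype in the real libraries.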

Additional observations from a re-analysis of the deposited data

How the results depend on the processing

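Itga4, Itga6, Cd44, Itgal and Itgb1 kept their direction and an adjusted p under 0.05 under every setting tried (14 each), with log2 fold changes from -1.38 to -0.67, -0.96 to -0.45, -0.81 to -0.46, -1.31 to -0.98 and -0.27 to -0.13, while Itgam did not pass under any of its 14. Cxcr4, which did not pass with TMM scaling, passed with total counts (-0.17), with at least 10 counts in every sample (-0.10) and with the length correction (-0.43). Selplg did not pass without a filter (-0.15), and leaving out 1 library moved it between -0.19 and -0.12. Itgb2 did not pass with DESeq2 (0.17), without a filter (0.18), with total counts (0.071) or with the length correction (0.0024), and leaving out 1 library moved it between 0.16 and 0.21. Why these adjusted p-values crossed the threshold was not tested. The number of genes called higher went from 2148 to 992 with the length correction. Higher genes made up 42.1% of all calls with TMM, 29.8% with total counts, which shift the median log2 fold change of all genes to -0.10, and 27.3% with the length correction. With that correction the lists gave 4 lower (other integrin subunits), 2 lower and 1 higher (integrin activation and linkage), 2 higher (chemokine and lipid trafficking receptors), 0 higher (selectins and selectin-ligand synthesis, 0 also with total counts) and 0 higher (niche ligands). Of 305 alternatives for 24 list genes, 293 kept side and direction and 0 reversed. Deviations of same-numbered samples correlated weakly (0.046, 0.011 and 0.060), although each value was the highest for its number. The sources do not say whether samples were paired, and correlations this small cannot settle it. With the replicate block the log2 fold changes were -0.07 (Cxcr4), -1.28 (Itga4), -0.84 (Itga6) and -0.65 (Itgam), and no receptor gene changed its side of the threshold. Limits are 3 samples per group, 1 time after irradiation, no protein measurement, no measure of homing or adhesion and no unirradiated samples. In its own homing assay with transplanted LSKs, the paper observed no significant difference between the genotypes. Its description of that assay gives no irradiation of the donor mice.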

Other observations

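Markers of other lineages were read for context, without a test of the lists. Genes named here were chosen after their values were seen. B cell markers summed to 48.2 to 52.7 CPM in Tespa1+/+ libraries against 36.0 to 39.1 CPM in Tespa1-/- libraries, the order kept below, with 4 of 5 tested called lower and 0 higher. T and NK cell markers summed to 195 to 205 CPM against 312 to 328 CPM, a sum carried by Nkg7, which rose from 194 ± 5.80 to 317 ± 7.75 CPM (SD, n = 3; adjusted p = 4.35e-06 by edgeR), whereas Cd4 and Cd8a were called lower and Cd3e was at 0 in Tespa1-/- libraries. Erythroid markers summed to 20.2 to 20.6 CPM against 35.6 to 38.6 CPM. Of 6 erythroid markers tested, the globins Hba-a1 and Hbb-bs and the anion exchanger Slc4a1 were called higher, and the earlier markers Klf1 and Epor were called lower. Megakaryocyte markers summed to 74.5 to 82.1 CPM against 61.8 to 65.0 CPM, with 1 of 5 tested called lower and 0 higher. That gene, Gp1bb, overlaps other annotated genes on the same strand. With the length correction, 3 of 5 megakaryocyte markers were called lower and 0 higher, and 0 T and NK cell markers were called higher. Over all genes tested, 19.2% were called lower and 14.0% higher, and 17.3% and 6.47% with the length correction.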
